A study of Mus musculus with 3 samples.

Results

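Ccr7, S1pr1, Klf2, Lef1, Tcf7, Il7r and Satb1 are 7 of the 32285 genes counted in single-cell RNA libraries from the inflamed large intestine of mice. They were chosen by symbol because together they cover lymph node homing, exit from tissue, and the transcription factors of circulating lymphocytes, and all 7 were counted in each library. The mice were C57/BL6J, a common inbred strain. All received 1.5% dextran sulfate sodium (DSS), which injures the colonic epithelium, in drinking water for 7 days and plain water for 3 days. They were injected intraperitoneally 3 times a week with 250 µg of rat IgG, the isotype control, or of the antibody clones DATK32 or MECA-367. The labels call DATK32 the stand-in for ontamalimab and MECA-367 that for vedolizumab, although DATK32 is generally known as an antibody to integrin α4β7 and MECA-367 as an antibody to its vessel ligand MAdCAM-1, so the groups are named here by clone. Viable CD45+ cells were sorted from lamina propria mononuclear preparations, and 1 library was made per group. With 1 library per group no difference has a replicate check and no p-value can be given. The number of mice behind a library, and whether animals were pooled, are not given in the sources used here. Intervals below are exact 95% Poisson intervals for counts and exact Clopper-Pearson intervals for shares, and cover counting error only.

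A lymphocyte enters a lymph node when the chemokine receptor CCR7 follows CCL19 and CCL21, and leaves lymph nodes and tissue when the receptor S1PR1 follows sphingosine-1-phosphate toward lymph and blood. KLF2 drives transcription of S1pr1, and the proteins of Lef1, Tcf7 and Satb1 maintain T cell programmes that are strongest in naive and memory cells. IL7R is the receptor chain through which interleukin 7 keeps lymphocytes alive, and it is also prominent on innate lymphoid cells. In the gut, resident lymphocytes are known for low KLF2 and S1PR1, which keeps them in place.

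At the limits used, 7367 barcodes remained for rat IgG, 5852 for DATK32 and 5890 for MECA-367, each with 500 or more unique molecular identifiers (UMIs, each standing for 1 captured RNA molecule), 200 or more genes and at most 10% mitochondrial UMIs. Median depth was 1469, 1524.5 and 1824.5 UMIs per kept barcode. Between 7 and 11 kept barcode sequences were shared by any 2 libraries and 0 by all 3. Clusters made without the 7 genes were named from marker genes, and the names below mean T-like, B-like and so on. There were 613, 678 and 802 T-like barcodes in rat IgG, DATK32 and MECA-367, in that order here and throughout, 159, 286 and 341 NK and ILC1-like barcodes, and 503, 103 and 148 B-like barcodes. Plasma-like barcodes numbered 699, 311 and 308, monocyte and macrophage-like ones 554, 447 and 507, and neutrophil-like ones 291, 283 and 644. All 12 T cell markers were found in the T-like barcodes, at 4427, 4561 and 4617 CPM in sum, where CPM scales the UMIs of a class to a common total. The CD45 sort notwithstanding, epithelial-like barcodes made up 27.4%, 23.6% and 10.7% of the kept barcodes, and stromal and endothelial-like barcodes were present too. They should lack Ccr7 and Lef1, and their values are given below as the level that RNA from other cells can reach.

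Ccr7 and S1pr1, the receptors for entering lymph nodes and for leaving tissue, were lower in T-like barcodes of both antibody libraries than in rat IgG. Ccr7 stood 1.79-fold lower in DATK32 and 3.08-fold lower in MECA-367, and S1pr1 2.22-fold and 2.76-fold lower. Lef1 was lower in MECA-367. Klf2, Tcf7, Il7r and Satb1 did not reach the rule for a difference in either comparison with rat IgG. That rule, used for "lower" and "higher" except where stated, is a difference of at least 1.5-fold in CPM with 95% intervals that do not overlap.

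Ccr7, at chr11:99144196-99155077 (minus strand, mouse build GRCm38, GENCODE annotation), encodes the lymph node homing receptor. In T-like barcodes it was counted at 189 CPM (157 to 226) in rat IgG, 106 CPM (85.5 to 129) in DATK32 and 61.1 CPM (49.0 to 75.3) in MECA-367, from 120, 96 and 88 UMIs. None of the 3 intervals overlapped another, and the order was rat IgG, DATK32, MECA-367. The log2 ratio was -0.84 (-1.24 to -0.44) for DATK32 against rat IgG, -1.62 (-2.04 to -1.22) for MECA-367 against rat IgG and -0.79 (-1.22 to -0.35) for MECA-367 against DATK32. The first and second of these comparisons share the rat IgG library, so a library that stood apart there would move both.

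The Ccr7 level was also lower where the gene should not be made. Stromal-like barcodes held 31.2, 8.17 and 7.16 CPM of Ccr7 and endothelial-like ones 45.5, 6.02 and 0 CPM. Epithelial-like ones held less, at 2.85, 1.94 and 1.04 CPM, also highest in rat IgG and lowest in MECA-367. With the stromal level of the same library subtracted, an alternative chosen after the data were seen, the T-like log2 ratios were -0.70 and -1.55 against rat IgG. B-like barcodes, which had the highest Ccr7 level of any class, made up 6.83%, 1.76% and 2.51% of the libraries. The part of those B cells, and of RNA free in the suspension, in the T-like values was not tested.

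S1pr1, at chr3:115710433-115715072 on the minus strand, encodes the receptor that guides lymphocytes out of tissue. Its T-like level was 123 CPM (97.2 to 153) in rat IgG, 55.0 CPM (40.8 to 72.5) in DATK32 and 44.5 CPM (34.2 to 56.8) in MECA-367. Rat IgG lay above both antibody libraries, whose intervals overlapped each other. The log2 ratio was -1.15 (-1.70 to -0.63) for DATK32 and -1.46 (-1.97 to -0.97) for MECA-367 against rat IgG, and -0.31 (-0.86 to 0.26) for MECA-367 against DATK32. Stromal-like barcodes held 11.1, 5.83 and 2.60 CPM. In the smaller of the 2 T-like clusters described below, the S1pr1 intervals of the 3 libraries overlapped.

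Il7r, at chr15:9505788-9530176 on the minus strand, encodes the interleukin 7 receptor alpha chain. Its T-like level was 375 CPM (329 to 426), 363 CPM (325 to 404) and 327 CPM (298 to 357), with all intervals overlapping. The log2 ratio was -0.05 (-0.29 to 0.20) for DATK32 and -0.20 (-0.43 to 0.03) for MECA-367 against rat IgG, so a fall as large as that of S1pr1 lies outside both intervals. Interleukin 7 signals through STAT5. The bases before the RefSeq start of Il7r (build GRCm38.p6, chr15:9529877-9530126, minus strand) are printed 5′ to 3′ to show the single match to the STAT5 letters TTCNNNGAA, in capitals, found when both strands were searched.
Il7r: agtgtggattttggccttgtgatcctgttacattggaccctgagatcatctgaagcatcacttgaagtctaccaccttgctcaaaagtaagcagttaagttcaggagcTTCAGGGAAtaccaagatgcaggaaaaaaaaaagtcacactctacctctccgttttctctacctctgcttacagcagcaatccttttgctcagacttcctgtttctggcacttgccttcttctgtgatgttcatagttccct
Of all 32851 RefSeq windows of the same 250 bases, 7.02% held that motif, and among the 13 windows of the 5 genes with an entry (Klf2, Lef1, Tcf7, Il7r and Satb1) it was in 1. The match is a run of letters and no sign of binding.

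Klf2, at chr8:72319033-72321656 on the plus strand, encodes a zinc finger transcription factor. In T-like barcodes it was at 307 CPM (266 to 354), 244 CPM (213 to 278) and 216 CPM (193 to 241). MECA-367 lay below rat IgG without overlap but at less than 1.5-fold, with a log2 ratio of -0.51 (-0.77 to -0.24), and DATK32 overlapped rat IgG at -0.33 (-0.62 to -0.05). Stromal-like barcodes held 248, 297 and 501 CPM of Klf2, as much as or more than the T-like barcodes in DATK32 and MECA-367, and the part of RNA from such cells in the T-like Klf2 values was not tested. KLF proteins bind CACCC boxes, and the bases before the RefSeq start of Klf2 (GRCm38.p6, chr8:72318812-72319061, plus strand) hold 1 copy, shown in capitals as it reads on the opposite strand.
Klf2: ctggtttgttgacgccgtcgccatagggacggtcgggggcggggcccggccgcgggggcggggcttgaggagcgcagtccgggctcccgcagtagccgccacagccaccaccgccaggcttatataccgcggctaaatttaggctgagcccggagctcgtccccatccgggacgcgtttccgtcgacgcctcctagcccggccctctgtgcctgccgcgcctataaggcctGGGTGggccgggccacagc
CACCC is common. It was found on either strand in 52.0% of all such windows and in 11 of the 13 windows of these genes. The forkhead letters GTAAACA (3.17% of all windows) and the TCF and LEF letters ATCAAAG (3.21%) were in 0 of the 13, which says only that these letters are not there.

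Lef1, at chr3:131110471-131224356 on the plus strand, encodes a partner of beta-catenin. It had 140 CPM (113 to 173), 100 CPM (80.5 to 123) and 86.1 CPM (71.7 to 103) in T-like barcodes, with only MECA-367 clear of rat IgG. The log2 ratio was -0.49 (-0.93 to -0.05) for DATK32 and -0.71 (-1.11 to -0.29) for MECA-367. Tcf7, at chr11:52252371-52283014 on the minus strand, encodes TCF1, the related factor of memory and stem-like T cells. Its levels of 194 CPM (161 to 231), 147 CPM (123 to 174) and 140 CPM (121 to 160) gave log2 ratios of -0.40 (-0.76 to -0.03) and -0.48 (-0.80 to -0.14). Rat IgG and DATK32 overlapped, and MECA-367 lay just below rat IgG at less than 1.5-fold. Satb1, at chr17:51736187-51833290 on the minus strand, encodes a chromatin organiser of T cell development. It stood at 640 CPM (579 to 705), 466 CPM (423 to 513) and 565 CPM (527 to 605), so DATK32 and not MECA-367 was the lowest library. Its log2 ratios were -0.46 (-0.66 to -0.26), -0.18 (-0.35 to -0.00) and, for MECA-367 against DATK32, 0.28 (0.11 to 0.45). The annotation places 2 other genes across Lef1, 2 across Tcf7 and 6 across Satb1, at least 1 of each set on the opposite strand. Whether the counting used strand is not given in the sources used here.

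**Figure D1:**
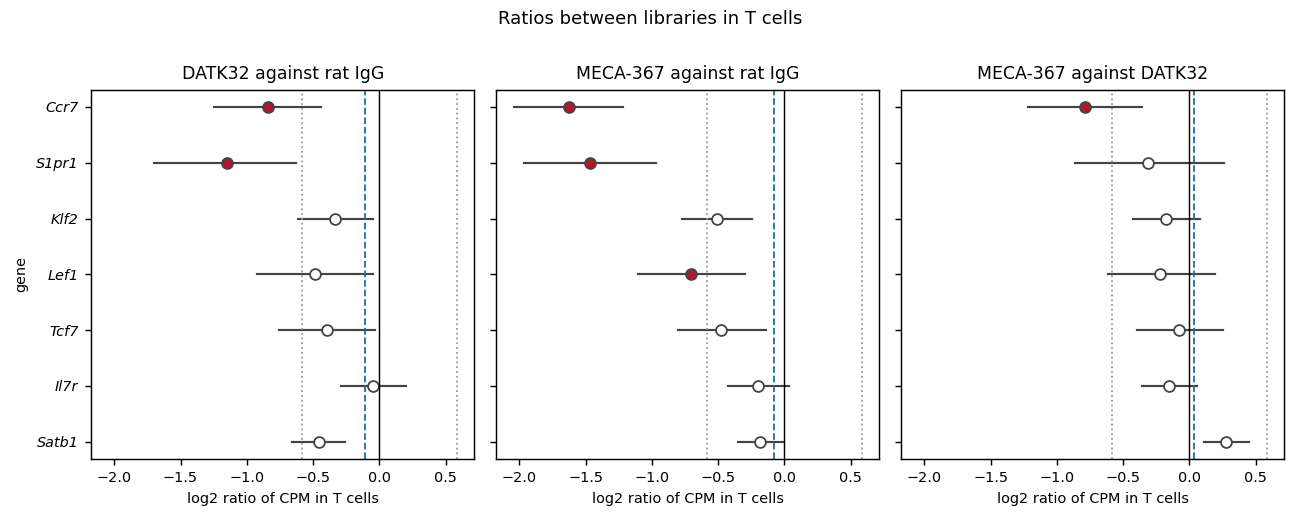
Log2 ratio of CPM between libraries in T-like barcodes for each gene (points) with its exact 95% interval (bars). Filled points are lower by the rule, dotted lines mark 1.5-fold, and the dashed line is the median of all 6201 genes measured. Ccr7 and S1pr1 lie farthest to the left in both comparisons with rat IgG.

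Counted over the 7 genes, 2 were lower and 0 higher in T-like barcodes of DATK32 against rat IgG, where 1.27% of 6201 measured genes were lower and 0.693% higher. In MECA-367 against rat IgG 3 were lower and 0 higher, where 4.93% of all genes were lower and 3% higher. In MECA-367 against DATK32 Ccr7 alone was lower, with 3.55% of all genes lower and 2.24% higher. The median log2 ratio of the 7 genes was -0.46, -0.51 and -0.18 in these comparisons, beside -0.10, -0.08 and 0.03 for all genes measured. Among all genes called in DATK32 against rat IgG 64.8% were lower, and with TMM scaling 33.3%, while the median of all genes moved from -0.10 to 0.00. In MECA-367 against rat IgG the share of lower calls was 62.2%, and 48.4% with TMM. Under TMM the same number of the 7 genes was lower in each comparison, 2, 3 and 1.

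The T-like barcodes of the 3 libraries also differed in RNA of other cells. The summed level of 13 epithelial markers in them was 1625, 1543 and 540 CPM, with 11, 12 and 9 of the markers found and Krt13 at 0 in all 3. The 10 plasma cell markers summed to 2279, 1911 and 1578 CPM, and 13 B cell markers to 44.1, 26.4 and 18.1 CPM, with the defining marker Ms4a1 at 0 in all 3 libraries. Fewer T cells of a kind and less RNA per cell cannot be told apart in these sums. When T-like barcodes with any UMI of a B, plasma or myeloid cell marker, or over 0.5% epithelial marker UMIs, were left out, 130, 191 and 232 remained. S1pr1 was then at log2 ratios of -2.07 and -2.05 against rat IgG and Ccr7 at -0.86 and -2.11, and the DATK32 call of Ccr7 was lost at the smaller counts.

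At 500 UMIs drawn from every barcode, 48 of 613, 28 of 678 and 16 of 802 T-like barcodes held a Ccr7 UMI, or 7.83% (5.83 to 10.2), 4.13% (2.76 to 5.91) and 1.995% (1.14 to 3.22). Only rat IgG and MECA-367 were clear of each other. Before thinning the shares were 11.3%, 8.70% and 5.11%, at median depths of 771, 978 and 1277.5 UMIs. Epithelial-like barcodes, at median depths of 3716, 5377 and 7359 UMIs, had Ccr7 in 0.0496%, 0.145% and 0% when thinned alike, where 0 of 631 allows up to 0.475% by 3 counts of the total and up to 0.583% by the exact interval. S1pr1 was in 5.06%, 3.24% and 1.995% of thinned T-like barcodes and Il7r in 14.03%, 17.6% and 16.8%. Klf2 was in 14.4% (11.7 to 17.4), 10.3% (8.14 to 12.9) and 10.7% (8.67 to 13.1), and in 8.63%, 8.25% and 9.35% of epithelial-like barcodes, so its T-like share in DATK32 and MECA-367 cannot be told from that of barcodes of another type.

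UMIs of 2 or more of the 7 genes were found in 20.9% (17.7 to 24.3) of thinned T-like barcodes in rat IgG, 15.6% (12.98 to 18.6) in DATK32 and 14.1% (11.8 to 16.7) in MECA-367. Only rat IgG and MECA-367 were clear of each other, and epithelial-like barcodes reached 0.0992%, 0.434% and 0.158%. The order did not hold at 3 or more genes, with 5.71%, 2.95% and 4.74%. Nor did it hold among barcodes with at least 1000 UMIs and 500 genes, where the shares for 2 or more were 16.8%, 18.4% and 12.5%.

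**Figure D2:**
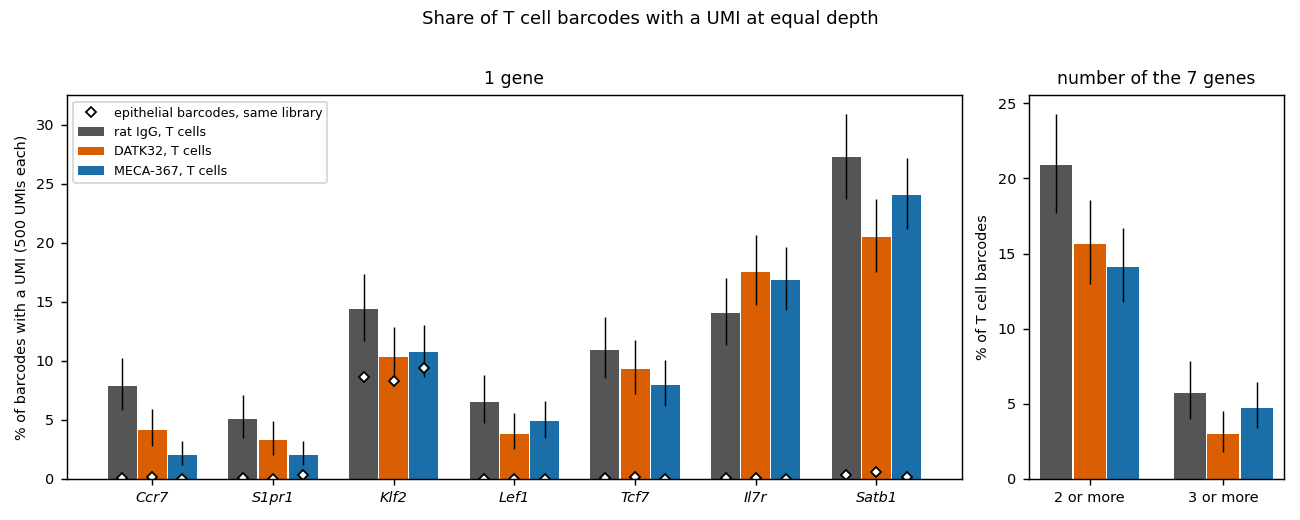
Percentage of T-like barcodes with a UMI of each gene (left) and with UMIs of 2 or more and 3 or more of the 7 genes (right), every barcode thinned to 500 UMIs. Bars are the 3 libraries, error bars exact 95% Clopper-Pearson intervals, and open diamonds epithelial-like barcodes of the same library. For Klf2 the diamonds come close to the bars, and for Ccr7 the T-like share goes from 7.83% in rat IgG to 1.995% in MECA-367.

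Within T-like barcodes some pairs of the genes were counted in the same barcodes more often, but for most pairs the intervals overlapped. An example is Ccr7, in 5.33% (2.87 to 8.94) of barcodes with Klf2 and 4.27% (3.40 to 5.30) without. Over the 3 libraries at 500 UMIs, Lef1 was found in 13.04% (6.93 to 21.7) of barcodes with Ccr7 and in 4.65% (3.77 to 5.66) of those without. Ccr7 was found in 13.04% (6.14 to 23.3) of barcodes with S1pr1 and in 4.10% (3.28 to 5.06) of the rest, on 9 shared barcodes. Barcodes with Lef1 also held Satb1 more often, at 43.8% (34.1 to 53.8) against 22.8% (21.0 to 24.7), and Klf2, at 24.8% (16.9 to 34.1) against 10.97% (9.63 to 12.4). For Lef1 in barcodes with and without S1pr1 the intervals overlapped, at 5.80% (1.60 to 14.2) and 4.99% (4.08 to 6.03). These pairs pool the libraries, whose levels differ, and sparse counts limit them.

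The T-like barcodes came from 2 clusters. The larger, of 1341 barcodes, was led by Cd7, Klrd1 and Ikzf2, and the smaller, of 752, by Tnfrsf4, Cd5, Ctla4 and Icos, genes of activated and regulatory cells. S1pr1 was at 129, 34.8 and 34.7 CPM in the larger cluster and at 114 (75.7 to 165), 78.4 (54.0 to 110) and 56.9 (39.9 to 78.8) CPM in the smaller. Rat IgG was clear of both antibody libraries in the larger cluster, whereas in the smaller all 3 intervals overlapped. At 500 UMIs per barcode the share with S1pr1 was 6.62%, 1.21% and 1.15% in the larger cluster, but 1.95%, 6.39% and 3.56% in the smaller, where rat IgG was the lowest. Ccr7 went from 131 to 63.4 and 49.6 CPM in the larger and from 281 to 154 and 75.9 CPM in the smaller, the same order in both. Il7r was higher in the smaller cluster in every library, at 509, 527 and 497 CPM against 291, 221 and 193 CPM. Tcf7 went the other way, at 138, 85.5 and 94.9 CPM in the smaller and 229, 200 and 175 CPM in the larger.

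Splitting T-like barcodes by lineage genes left few UMIs in the barcodes that held such a gene. In 50, 90 and 162 barcodes with Cd8a or Cd8b1 and no Cd4, Ccr7 was at 296 CPM, 68.7 CPM and 45.9 CPM, from 20, 10 and 15 UMIs. In 39, 53 and 36 barcodes with Foxp3, the gene of regulatory T cells, it was at 191, 145 and 0 CPM, from 11, 19 and 0 UMIs. In 22, 35 and 59 barcodes with Cd4 alone it was at 151, 214 and 56.6 CPM, from 4, 12 and 15 UMIs. MECA-367 was the lowest of the 3 libraries in each of these 3 gates, and rat IgG was not the highest in the Cd4 gate. S1pr1 was at 75.5, 143 and 45.3 CPM in the Cd4 gate, from 2, 8 and 12 UMIs, and at 52.2, 61.3 and 26.8 CPM in the Foxp3 gate, from 3, 8 and 2 UMIs, highest in DATK32 in both. In the Cd8a or Cd8b1 gate it was at 88.8, 13.7 and 18.4 CPM, from 6, 2 and 6 UMIs. The 50, 62 and 81 barcodes with Trdc held 5, 7 and 5 UMIs of Ccr7 and 2, 1 and 0 of S1pr1. Most T-like barcodes, 459, 464 and 490, held none of Cd4, Cd8a, Cd8b1, Foxp3 and Trdc. Ccr7 was there at 188, 103 and 78.2 CPM, from 82, 55 and 54 UMIs. S1pr1 was at 151, 65.4 and 65.2 CPM in them, from 66, 35 and 45 UMIs.

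Genes around the 7 were described from 6 lists. Of 16 measured circulation and naive lymphocyte genes, 3 were lower and 0 higher in T-like barcodes of DATK32 against rat IgG, with a list median of -0.25, beside 1.27% lower and 0.693% higher and a median of -0.10 over all 6201 genes. In MECA-367 3 were lower and 1 higher, with a median of -0.33, beside 4.93% lower and 3% higher and a median of -0.08 over all genes. These shares of all genes also stand beside the lists that follow. Pik3ip1, an inhibitor of PI3 kinase, was lower in both antibody libraries (-1.90 and -1.49). Cd27, a costimulatory receptor, was lower in DATK32 (-0.62) and at -0.54 in MECA-367. Btg1, an antiproliferative gene of resting cells, was lower in MECA-367 (-1.004) and at -0.56 in DATK32. Bcl2, the survival gene downstream of interleukin 7, was higher in MECA-367 (0.60) and at 0.11 in DATK32.

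Of 7 measured genes for egress receptors, their brakes and sphingosine-1-phosphate handling, 2 were lower and 0 higher in each antibody library, with medians of -0.35 and -0.40. Grk2, a kinase that desensitises receptors such as S1PR1, was lower in both (-0.61 and -0.72). Cxcr4, a chemokine receptor, was lower in DATK32 (-0.70), and Gpr183, the oxysterol receptor EBI2, in MECA-367 (-0.68). Of 10 measured genes of the interleukin 7 axis 0 were lower in either library, and Bcl2 in MECA-367 was the 1 that was higher.

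The 15 measured tissue residency genes had medians of 0.04 in DATK32 and 0.16 in MECA-367. With 1 lower in DATK32 and 1 lower and 1 higher in MECA-367, the list was near the shares over all genes. Rgs2, a brake on G protein signals, was lower in DATK32 (-0.61). In MECA-367 Rgs1, another such brake that is typical of resident T cells, was higher (0.65), at 692, 834 and 1084 CPM over the libraries, and Nr4a1, an early gene of receptor signalling, was lower (-0.91). Cd69, whose protein pulls S1PR1 from the surface, and which was picked here after its values were seen, did not pass the rule at 419, 313 and 372 CPM. Of 8 measured TCF and LEF partners and targets, 0 were called in DATK32 and 2 were lower in MECA-367, the corepressor gene Tle4 (-0.95) and Slamf6 (-0.99), a receptor of stem-like T cells. Of 9 genes for CCR7 ligands and scavengers 0 reached 50 UMIs in T-like barcodes. Those with most counts were Chst4, with 1, 1 and 2 UMIs, and Ackr4, a scavenger of the ligands, with 0, 1 and 1.

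Outside T cells, Ccr7 was highest in B-like barcodes. It stood there at 352, 235 and 274 CPM, with no call between libraries, followed by monocyte and macrophage-like barcodes at 262 (228 to 300), 170 (145 to 199) and 123 CPM (106 to 141). In the latter it was lower in both antibody libraries, with log2 ratios of -0.62 and -1.09. Over the libraries together the levels were 321, 170 and 101.9 CPM in B, monocyte and macrophage, and T-like barcodes, each interval clear of the next, while T, NK and ILC1, and ILC2-like barcodes (101.9, 92.7 and 90.2 CPM) were not apart. The ILC2-like value rests on MECA-367, where 5 barcodes held 22 of the 26 UMIs. By library it was 35.5, 25.6 and 143 CPM, with MECA-367 the highest. The B-like barcodes, fewer in both antibody libraries, held 27.2%, 6.62% and 9.63% of all Ccr7 UMIs, and the monocyte and macrophage-like ones 25.2%, 35.1% and 35.7%.

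The Ccr7 UMIs of the monocyte and macrophage-like class sat in few barcodes. Of 1508, 230 had any Ccr7 UMI, and 120 with 2 or more held 455 of the 565 UMIs. Barcodes with Ccr7 carried most of the checked genes of mature, migrating dendritic cells more often than the 1278 without. Fscn1, an actin bundler, was in 3.48% (1.51 to 6.74) against 0.313% (0.0853 to 0.799), Ccl22 in 4.78% (2.41 to 8.40) against 0.704% (0.323 to 1.33) and Il4i1 in 10.4% (6.80 to 15.1) against 4.30% (3.26 to 5.57). The T cell gene Trac was also found more often with Ccr7, in 17.8% (13.1 to 23.4) against 5.71% (4.50 to 7.13). So was the B cell gene Cd79a, in 8.26% (5.05 to 12.6) against 2.50% (1.72 to 3.52). Cd79a was in 12.04% of the Ccr7 barcodes of rat IgG, 6.45% of those of DATK32 and 3.33% of those of MECA-367. The macrophage and neutrophil gene Lyz2 was found less often with Ccr7, in 62.2% (55.6 to 68.5) against 79.2% (76.9 to 81.4). The macrophage gene C1qa was not, at 18.3% (13.5 to 23.9) against 15.3% (13.4 to 17.4), with overlapping intervals. Barcodes with Ccr7 were deeper, with medians of 1997 and 1582 UMIs. The part of doublets with T or B cells was not tested.

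S1pr1 and Klf2 were highest in endothelial-like barcodes, in which both genes are well known. S1pr1 was at 468, 789 and 558 CPM there and Klf2 at 924, 1373 and 1563 CPM, above all other classes in each library. Over the libraries together, S1pr1 came next in B-like (140 CPM, 118 to 166) and then in T-like barcodes (64.3 CPM, 55.6 to 74.1). In B-like barcodes S1pr1 was at 161, 141 and 68.6 CPM and lower in MECA-367 than in rat IgG (-1.13), the 1 call among 6 measured genes, where 3.76% of all genes were lower. In DATK32 0 of the 6 were lower or higher in B-like barcodes, where 1.57% of 2923 genes were lower and 1.88% higher, and 0 in MECA-367 against DATK32, where 2.02% were lower and 0.684% higher. T markers summed to 1135, 1435 and 939 CPM in the B-like barcodes, so some T cell RNA was counted there. Plasma cell markers summed to 17654, 3905 and 4564 CPM in the same barcodes, highest in rat IgG. Their part in the B-like values was not tested.

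In NK and ILC1-like barcodes Klf2 went against its T-like direction. It was at 263 CPM (190 to 356) in rat IgG, 246 CPM (198 to 302) in DATK32 and 468 CPM (410 to 531) in MECA-367. MECA-367 was clear of both, with a log2 ratio of 0.80 (0.35 to 1.34) against rat IgG and 0.92 (0.57 to 1.29) against DATK32, the 1 call among 6 measured genes. Of all 2886 genes measured in this class, 1.8% were higher and 2.53% lower in MECA-367 against rat IgG, and 1.63% higher and 2.67% lower against DATK32. In DATK32 against rat IgG 0 of the 6 were called, where 1.46% of all genes were lower and 1% higher. Klf2 in stromal-like barcodes was also larger in MECA-367, at 501 against 248 CPM. Inside the NK and ILC1-like barcodes the 14 stromal markers summed to 150, 24.1 and 320 CPM, from 24, 9 and 161 UMIs, with 8, 6 and 10 of them found and Acta2 at 0 in all 3. That is the order of Klf2, and the part of stromal RNA in it was not tested.

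Satb1 was highest in NK and ILC1-like barcodes, at 884, 992 and 1033 CPM, then in B-like ones at 878, 808 and 792 CPM, with no call between libraries in either. Tcf7 was at 163, 192 and 151 CPM in NK and ILC1-like barcodes, not apart from its T-like level over the libraries together (168 CPM, 144 to 195, against 153 CPM, 140 to 168). Il7r was highest in ILC2-like barcodes, which depend on interleukin 7, at 1120, 769 and 1201 CPM. Lef1 was highest in T-like barcodes, with 40.3%, 52.6% and 55.9% of its UMIs, and was at or under 0.607 CPM in epithelial-like ones.

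In plasma-like barcodes all 7 genes were low relative to their highest class. Ccr7 (49.5, 31.0 and 20.7 CPM) and Satb1 (103, 63.0 and 63.3 CPM) were lower in both antibody libraries. These were 2 of 7 in DATK32, where 1.91% of 7111 genes were lower and 1.15% higher, and with S1pr1 (19.2 and 4.97 CPM in rat IgG and MECA-367) 3 of 7 in MECA-367, where 8.79% were lower and 2.56% higher. Against DATK32, Tcf7 alone was lower in MECA-367 (26.1 and 12.8 CPM, log2 ratio -1.01), where 4.16% of genes were lower and 2.1% higher. The 10 plasma cell markers summed to 403821, 475497 and 496890 CPM in the plasma-like barcodes, lowest in rat IgG. Their part in the lower CPM of other genes was not tested. In monocyte and macrophage-like barcodes Ccr7 and Satb1 were lower in DATK32, 2 of 7 beside 1.38% of 5995 genes lower and 1.28% higher. Ccr7, S1pr1, Lef1 and Satb1 were lower in MECA-367, 4 of 7 beside 5.75% lower and 2.55% higher. In MECA-367 against DATK32 0 of 7 were called there, beside 4.17% lower and 1.8% higher. In that class B cell markers summed to 308, 64.2 and 59.8 CPM, with 13, 13 and 10 of 13 found. Dendritic markers summed to 259, 189 and 129 CPM and T markers to 739, 594 and 559 CPM. All 3 sums were highest in rat IgG and lowest in MECA-367, as Ccr7 was. Plasma cell markers went the other way, at 1791, 5552 and 14920 CPM, as did neutrophil markers, at 3463, 4297 and 4670 CPM. Epithelial markers were highest in DATK32, at 1197, 1719 and 768 CPM. The part of these sums in the lower Ccr7 level was not tested. In neutrophil-like barcodes Klf2, the 1 call among 4 measured genes against rat IgG, was higher in MECA-367, at 195, 256 and 323 CPM with a log2 ratio of 0.72 (0.44 to 1.03) against rat IgG. There 5.1% of 6666 genes were higher and 16.9% lower, and 0 of the 4 were called in DATK32, where 2.07% were lower and 1.67% higher. Stromal markers inside the neutrophil-like barcodes summed to 3413, 3866 and 1467 CPM, lowest in MECA-367. Ccr7 was lower in MECA-367 than in DATK32 there (28.0 and 53.2 CPM, -0.94), beside 8.57% of genes lower and 2.9% higher.

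**Figure D3:**
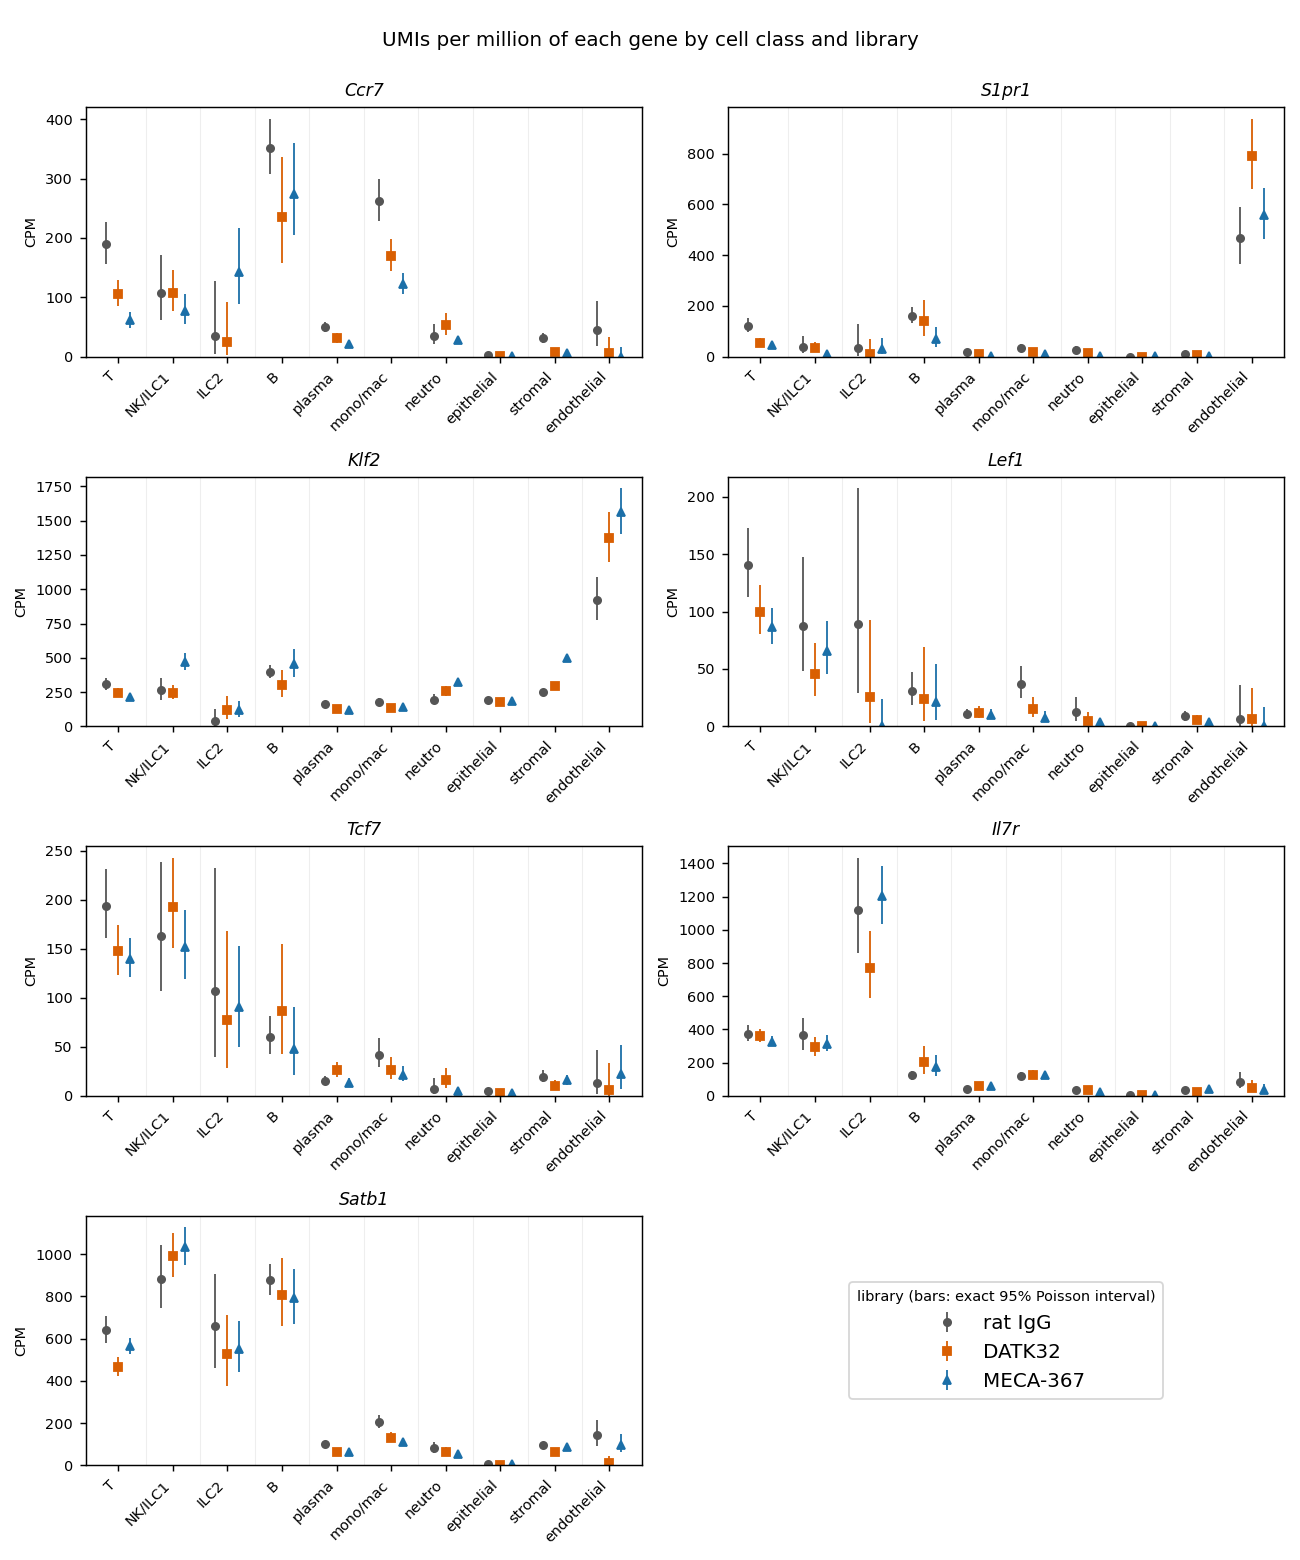
CPM of each gene (1 panel each, linear axis from 0) by cell class, with points for the 3 libraries and bars for exact 95% Poisson intervals. S1pr1 and Klf2 peak in endothelial-like barcodes, Il7r in ILC2-like ones, Ccr7 in B-like ones, and Lef1 in T-like ones, in each of the 3 libraries.

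**Figure D4:**
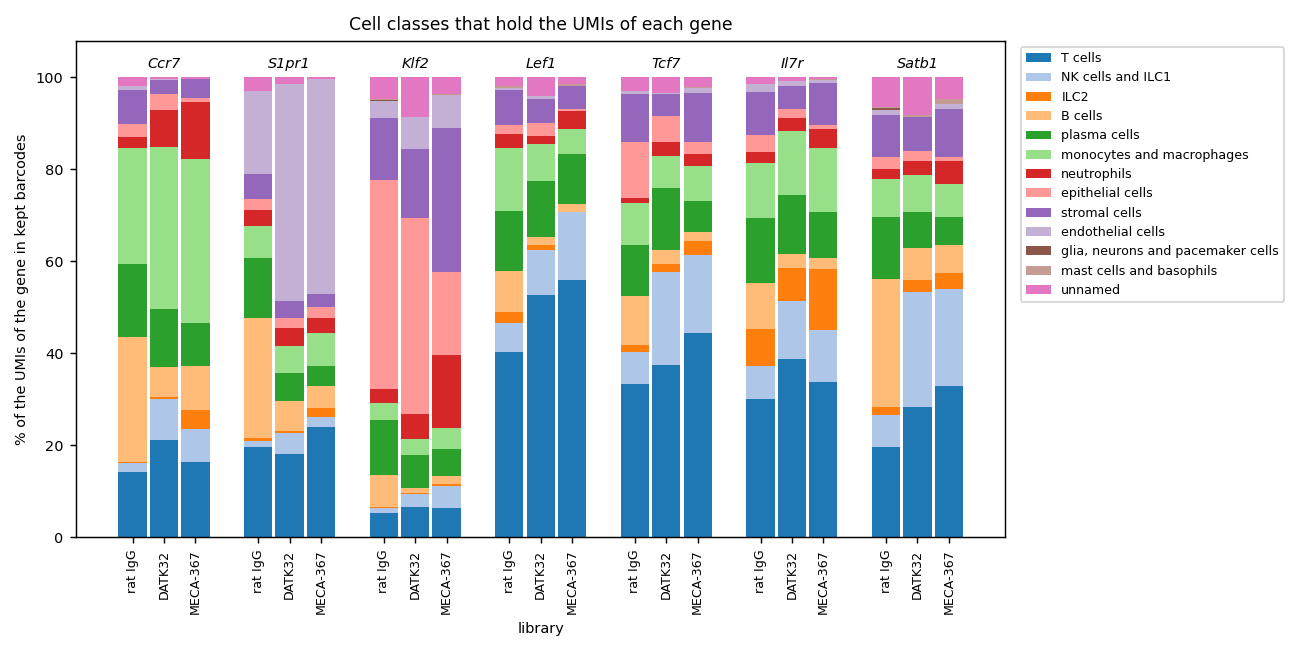
Share of the UMIs of each gene, among kept barcodes, that each cell class holds in each library (stacked bars to 100%). The B-like share of Ccr7 goes from 27.2% in rat IgG to 6.62% in DATK32, and endothelial-like barcodes hold 18.0%, 47.3% and 46.6% of S1pr1.

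Across 33 profiles of log2(CPM + 10), 11 classes in 3 libraries, the genes most like each of the 7 were found among 11178. For Ccr7 they were Nckap1l (Pearson r = 0.85), Lpxn and Gmip, and for S1pr1 Icam2 (r = 0.88), Ptp4a3 and Sh2b3. Klf2 was most like Cds2 (r = 0.87), Strn3 and Kctd10, and Lef1 most like Bend4 (r = 0.89), Kdm2b and Stk4. The closest likeness was that of Tcf7 to Gimap3 (r = 0.97), Sh2d2a and Kdm2b. Il7r followed Icos (r = 0.95), Il2ra and Ramp3, and Satb1 followed P2ry10 (r = 0.94), Stat4 and Vps37b. Among the 7 themselves, Tcf7 and Il7r were most alike (r = 0.89) and Klf2 and Satb1 least (r = -0.16). Profiles of 1 class share cells and depth, so these values describe the classes and carry no p-value.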

How the data were processed

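Per the submitters' processing notes, the authors made the deposited tables with Cell Ranger 6.0.2 on build mm10, and the files hold whole UMI counts per gene and barcode. Whether intronic reads or strand were used is not given in the sources used here. From these counts, barcodes were kept as stated above, clustered with scanpy 1.11.5 (2000 variable genes without the 7 genes and the 6 lists, 30 components, 15 neighbours, Leiden resolution 1) into 27 clusters, and named from markers where the marker score led by 0.3. Scrublet called 0, 1 and 0 doublets, which is no working call, so none were removed. Counts were summed per class and library. CPM, ratios with 1 added count, and calls were computed with scipy 1.17.1 for genes with 50 or more counts, and the ratio step was tested on simulated data. TMM factors came from edgeR 4.0.16. All 7 genes are named. Of each list, genes called against rat IgG in T-like barcodes are named, otherwise the 2 with most counts, except for a called circulation gene that is not reported here, and per gene the 3 most alike. The members, lists and naming limits were chosen with earlier results of these data known. Mast cells, glia and unnamed clusters are not described.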

Additional observations from a re-analysis of the deposited data

Results flagged for a closer look

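Klf2 in MECA-367 against rat IgG lay on opposite sides of 0 in different classes, with intervals that excluded 0. It was higher in NK and ILC1-like barcodes, at a log2 ratio of 0.80, and in neutrophil-like barcodes, at 0.72, and below rat IgG in T-like barcodes at -0.51 and in plasma-like barcodes at -0.42. Stromal markers inside these barcodes summed to 150 and 320 CPM in the NK and ILC1-like class and to 3413 and 1467 CPM in the neutrophil-like class, in rat IgG and MECA-367, and their part was not tested. With 1 library per group the difference between classes was not tested. Chosen after its value was seen, the endothelial-like level of Klf2 (924 and 1563 CPM) and the stromal-like level (248 and 501 CPM) were also larger in MECA-367.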

How the results depend on the processing

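The T-like values rest on 50 to 813 UMIs per gene and library, and with 1 library per group no replicate shows how far libraries of 1 group would differ. No paired analysis was possible because each group has 1 library. For the T-like results, 17 alternatives were run per gene (16 for Klf2, whose stromal level was too high to subtract), 14 of them planned and 3 chosen after seeing the data. A count minimum of 10, or none, changes only which genes are measured. Each gene named here keeps its ratio and call there by construction, so those alternatives are no check on it. The alternative with all lymphoid classes together pools other classes with the T-like barcodes. For the mean over barcodes and for the subtracted stromal level no interval was computed, so lower there means at least 1.5-fold alone. The counts that follow include all of these. Against rat IgG in MECA-367, Ccr7 (-2.26 to -1.34) and S1pr1 (-2.05 to -1.18) were lower in all 17. In DATK32, Ccr7 (-1.12 to -0.67) and S1pr1 (-2.07 to -0.79) were lower in 15 each. Lef1 in MECA-367 (-0.87 to -0.28) was lower in 11 of 17, and Klf2 (-1.32 to -0.18), not called at first, was lower in 6 of 16. No called ratio changed sign in any alternative. Thinned to 500 UMIs, 1 gene was lower in DATK32 against rat IgG and 0 in MECA-367 against DATK32. Thinned to 1000 UMIs, 0 were lower in DATK32 against rat IgG, with medians of -0.14 there and -0.18 in MECA-367 against rat IgG. In barcodes with at least 1000 UMIs and 500 genes the DATK32 median was -0.25. Without barcodes holding RNA of other cell types, 1 was lower in DATK32 against rat IgG and 0 in MECA-367 against DATK32. With all lymphoid classes together, 0 were lower in MECA-367 against DATK32, and the MECA-367 median against rat IgG was -0.22. The share of T-like barcodes with 2 or more genes was 16.8% in rat IgG at 1000 UMIs and 500 genes. Thinned to 1000 UMIs it was 37.0%, 32.7% and 25.4%. Back at 500 UMIs, the share with 1 or more genes was 57.4%, 49.7% and 48.5%, and with 3 or more 5.71%, 2.95% and 4.74%. The cause of these changes was not tested, apart from the smaller counts that thinning and leaving barcodes out leave. Of genes lower in DATK32 T-like barcodes, 1.27% became 0.964% at 10 or more counts and 0.651% with no minimum, and 4.93% became 4.16% and 2.80% in MECA-367.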

Other observations

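Barcodes above the 10% mitochondrial limit entered no comparison. Scaled to their non-mitochondrial UMIs, they held 10.9, 4.18 and 5.92 CPM of Ccr7 in the order rat IgG, DATK32, MECA-367, lower in both antibody libraries. S1pr1 was at 4.45, 2.67 and 1.13 CPM, and lower in MECA-367. Klf2 was at 153, 129 and 141 CPM, with no call, and Lef1 at 3.16, 1.16 and 2.11 CPM, lower in DATK32. Tcf7, Il7r and Satb1 had no call against rat IgG. These barcodes pool all cell classes, and the share of all genes called among them was not computed.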
